A study of Mus musculus with 8 samples.

Results

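The regions described here are the rows of the authors' deposited H3K27me3 table that start between 80 and 140 Mb on mouse chromosome 7 in build GRCm38. They number 6549 of the 265968 regions in the table, and every one of them was kept. The stretch was selected on the measured values themselves, since earlier results of these data showed the difference between the libraries changing direction near 100 Mb. All directions below are therefore a description with no test.

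The libraries came from 3T3 cells, an immortalised mouse fibroblast line, that carried a control construct or a construct overexpressing NNMT, nicotinamide N-methyltransferase. Each construct had 3 libraries immunoprecipitated for H3K27me3 with antibody clone C36B11, called biological replicates by the submitters, and 1 input library. All cells, controls included, spent 48 h in medium holding 10 µM methionine, with dialyzed serum at 10%. Chromatin was crosslinked in 1% formaldehyde and cut with micrococcal nuclease. The sources used here do not give the promoter driving the constructs or whether a line is 1 clone, and the table holds no expression values against which the labelled cell type could be checked.

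H3K27me3 is the trimethylated form of lysine 27 on histone H3. Polycomb repressive complex 2 writes it with its catalytic subunits EZH1 or EZH2, using S-adenosylmethionine as the methyl donor, and EED and SUZ12 hold the complex together. In fibroblasts it covers developmental regulators and genes of other lineages, in blocks that range from single nucleosomes to whole genes, and it is classed as a silencing mark. NNMT methylates nicotinamide with the same donor.

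Each region of the authors' deposited table carries 3 values listed first and 3 listed second, called set 1 and set 2 here. No source used here says which set is NNMT or in what order its libraries stand, so no direction is tied to a construct. A ratio below is of summed values with a pseudocount of 1, and the range in parentheses after it is that of the 9 ratios between single libraries, one from each set. Regions or windows are called separated where all 3 libraries of one set lie above all 3 of the other. The table lists only regions with a p of up to 0.1 by the authors' own test, so a stretch with no region says nothing about its level of the mark. Inputs and library totals are not in the table: depth is unknown, and more of the mark cannot be told apart from more DNA at a locus.

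Promoter sequence was compared at the turn, since the genes on its 2 sides differ in kind. Shown are the 250 bases before the start site of the 3 genes nearest to the turn on each side, predicted genes left out, for which every region over a promoter was separated in that side's direction. This choice was made after the values were seen. Pde2a and Slco2b1 lie nearer to the turn than Wnt11 but had promoters touched by regions of both directions, and they were passed over. Sequences are from RefSeq on GRCm38.p6, 5′ to 3′ on the gene's strand, and capitals mark CG pairs, the dinucleotide enriched in CpG-island promoters.
Wnt11, chr7:98834862-98835111, plus strand: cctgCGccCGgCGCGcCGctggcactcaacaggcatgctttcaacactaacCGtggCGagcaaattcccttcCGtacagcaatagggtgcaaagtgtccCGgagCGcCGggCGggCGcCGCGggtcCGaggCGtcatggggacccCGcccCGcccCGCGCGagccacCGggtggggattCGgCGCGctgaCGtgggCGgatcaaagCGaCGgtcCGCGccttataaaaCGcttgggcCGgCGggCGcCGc
Olfr521, chr7:99766914-99767163, plus strand: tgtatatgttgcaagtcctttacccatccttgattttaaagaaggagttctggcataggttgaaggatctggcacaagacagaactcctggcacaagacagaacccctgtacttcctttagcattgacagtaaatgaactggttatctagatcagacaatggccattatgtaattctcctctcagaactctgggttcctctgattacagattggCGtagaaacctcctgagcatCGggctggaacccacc
Kcne3, chr7:100178433-100178682, plus strand: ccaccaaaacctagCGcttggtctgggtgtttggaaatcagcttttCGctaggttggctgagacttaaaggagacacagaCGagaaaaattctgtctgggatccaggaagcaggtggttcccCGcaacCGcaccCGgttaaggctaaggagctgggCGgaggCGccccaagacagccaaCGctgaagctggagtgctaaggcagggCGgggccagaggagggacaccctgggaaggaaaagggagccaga
Olfr547, chr7:102534499-102534748, plus strand: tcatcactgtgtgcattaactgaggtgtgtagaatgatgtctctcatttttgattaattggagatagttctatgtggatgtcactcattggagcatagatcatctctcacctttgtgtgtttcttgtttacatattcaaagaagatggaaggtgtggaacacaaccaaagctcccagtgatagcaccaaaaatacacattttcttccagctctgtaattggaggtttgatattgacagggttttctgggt
Olfr551, chr7:102588820-102589069, minus strand: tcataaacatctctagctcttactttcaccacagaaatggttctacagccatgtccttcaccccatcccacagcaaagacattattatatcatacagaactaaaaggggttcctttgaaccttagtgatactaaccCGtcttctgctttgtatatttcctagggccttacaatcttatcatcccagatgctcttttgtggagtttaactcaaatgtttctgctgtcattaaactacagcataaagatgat
Olfr552, chr7:102604106-102604355, plus strand: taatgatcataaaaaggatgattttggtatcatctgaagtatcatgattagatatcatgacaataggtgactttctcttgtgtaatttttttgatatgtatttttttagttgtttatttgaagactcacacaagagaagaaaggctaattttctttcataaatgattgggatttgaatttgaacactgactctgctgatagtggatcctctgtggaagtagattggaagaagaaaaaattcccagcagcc

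Wnt11, Olfr521 and Kcne3, before the turn, held 37, 2 and 10 CG pairs, and the 3 after it held 0, 1 and 0. The region over the Wnt11 promoter (chr7:98832401-98835050) read 711, 646 and 714 in set 1 and 548, 539 and 550 in set 2, so every set 1 library was above every set 2 library (1.26-fold, 1.17 to 1.32). Wnt11 encodes a secreted Wnt ligand, and 189 of its 250 printed bases lay under the region. The region over the Olfr547 promoter (chr7:102534451-102534850) read 38, 47 and 60 in set 1 and 87, 73 and 75 in set 2, the reverse order (1.62-fold higher in set 2, 1.21 to 2.26). Olfr547, Olfr551 and Olfr552 encode odorant receptors, G protein-coupled receptors of olfactory neurons. Kcne3, a regulatory subunit of potassium channels, had 82 of its printed bases under a region that read 133, 116 and 145 against 92, 114 and 106.

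In the table as a whole, set 1 had the higher sum in 59.5% of regions and set 2 in 40.5%, and the log2 ratio of all summed values was 0.19. Every region's direction in the authors' sign column was that of its sums, with 0 disagreements. Whole chromosomes leaned too: the log2 ratio was 0.62 on chromosome 4 and −0.21 on chromosome 16, 1972 of the 1976 regions on chromosome X were higher in set 1, and all 19 on chromosome Y were higher in set 2. On chromosome 7 outside the stretch it was 0.49.

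Before 100 Mb, H3K27me3 was higher in set 1 and after it higher in set 2. From 80 to 100 Mb 1078 of 1343 regions (80.3%, beside 59.5% in the whole table) were higher in set 1. The set 1 libraries summed to 180893, 180862 and 174358 and the set 2 libraries to 126430, 125633 and 125490, a ratio of 1.42 (1.38 to 1.44). From 100 to 140 Mb 3607 of 5206 regions (69.3%, beside 40.5%) were higher in set 2. There set 1 summed to 553886, 567629 and 530130 and set 2 to 628980, 656775 and 627091, a ratio of 1.16 in favour of set 2 (1.10 to 1.24). The libraries of the sets did not overlap on either side. As deposited the difference was the larger on the proximal side (log2 0.51 and −0.21), and after scaling both sets to equal sums over the whole table it was the larger on the distal side (0.31 and −0.41). Between 0 and 80 Mb of the same chromosome 83.4% of regions were higher in set 1 (log2 0.54), and from 140 Mb to the end 53.5% were (log2 0.03).

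**Figure D1:**
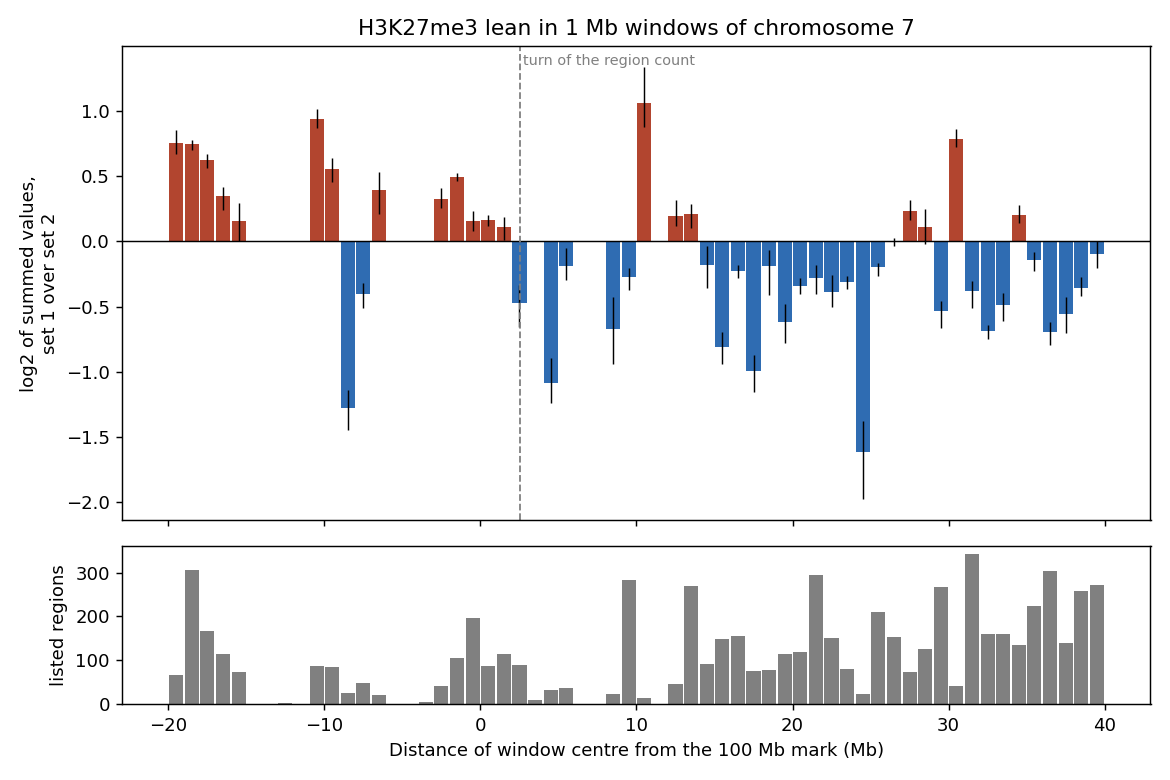
H3K27me3 difference in 1 Mb windows of chromosome 7. Upper panel: bars give the log2 of summed set 1 over summed set 2 values for windows with at least 10 regions (red, set 1 higher; blue, set 2 higher), black lines the range of the 9 ratios between single libraries. Lower panel: number of listed regions per window. The x axis is the distance from the 100 Mb mark in Mb, and the dashed line marks the turn of the region count. Bars are mostly red to its left and mostly blue to its right, with windows of the other colour on both sides, some of them adjacent.

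The windows did not turn at 100 Mb itself. The windows starting at 99 and 100 Mb and the one after them were all higher in set 1, by log2 0.16, 0.16 and 0.11, and the first window higher in set 2 was that starting at 102 Mb, at −0.47. In the last window before 102 Mb the set 1 libraries summed to 19317, 19894 and 17940 and the set 2 libraries to 17658, 17803 and 17492, which separates them by little. At 102 Mb they summed to 6383, 6884 and 5917 against 8660, 9329 and 8660, with every set 2 library well above set 1. Further back the window at 98 Mb stood at 0.50 and that at 97 Mb at 0.32. Past 102 Mb the windows at 103 and 104 Mb reached −1.52 (9 regions) and −1.09 (33 regions).

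Taken as 5 Mb on each side, the log2 ratio went from 0.28 to −0.02 across 100 Mb, a step of 0.30, and from 0.22 to −0.50 across 102 Mb, a step of 0.72. The boundary at 102 Mb was chosen after the windows were seen, and its step was not the largest of the stretch. Across 91 Mb the log2 ratio went from 0.67 to −0.27, a step of 0.94. The step was 0.60 at 115 Mb and, in the reverse direction, −0.62 at 109 Mb. The turn near 102 Mb is therefore one of several changes of direction. For comparison, steps were taken at the 1961 boundaries of the table that had a minimum number of regions in the 5 Mb on both sides. Of these, 40.3% had a step of either sign at least as large as that at 100 Mb, and 7.90% one at least as large as that at 102 Mb. From 102 to 107 Mb the set 1 libraries summed to 9848, 10557 and 9497 and the set 2 libraries to 14061, 14564 and 13733, with 87.6% of the 170 regions higher in set 2 and a ratio of 1.42 (1.30 to 1.53). Where both sets were scaled to equal sums over the whole table, which lowers every log2 ratio by 0.19, the last 3 windows before 102 Mb became −0.03, −0.03 and −0.08, and the windows then turned at 99 Mb.

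**Figure D2:**
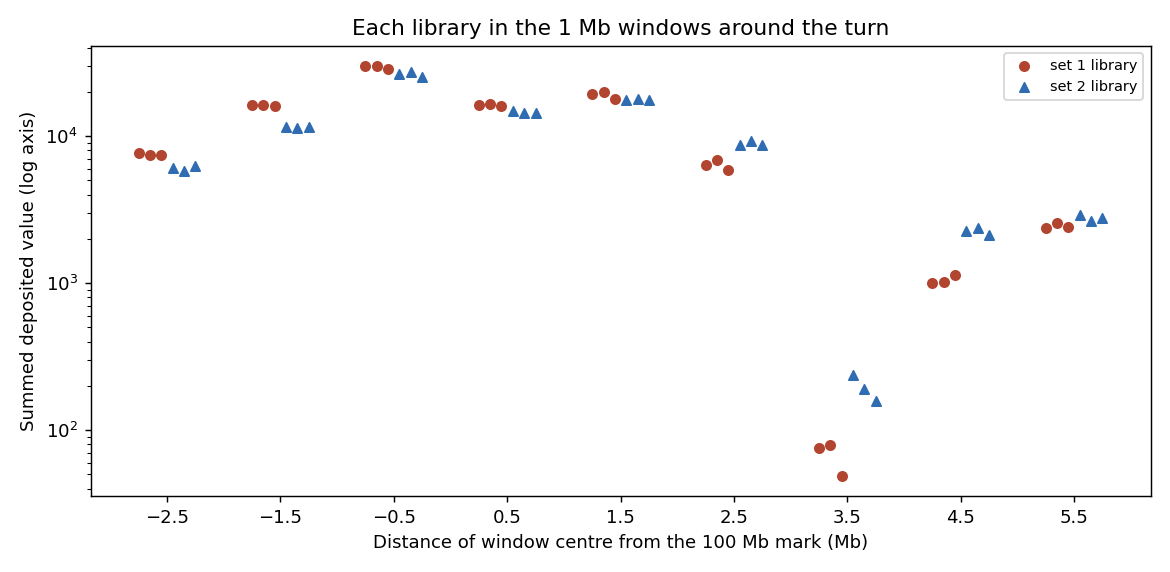
Each library's summed deposited value in the 1 Mb windows around the turn, on a log axis, against the distance of the window centre from the 100 Mb mark in Mb. Red circles are the 3 set 1 libraries and blue triangles the 3 set 2 libraries. Circles sit above triangles up to the last window before 102 Mb (19317, 19894 and 17940 against 17658, 17803 and 17492) and below them from the window starting at 102 Mb.

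Counting regions rather than summing values placed the turn more finely. The running count of set 1 regions minus set 2 regions peaked at chr7:102503201-102503650, and both scalings gave that place. Scaling could hardly move it, since only 29 of the 6549 regions had a fold below the scaling factor of 1.14. Before and at it lay 1549 regions, of which 1212 (78.2%) were higher in set 1, and after it 5000, of which 3535 (70.7%) were higher in set 2. That last region, 8428 bp from Olfr545, read 82, 85 and 66 in set 1 and 41, 47 and 29 in set 2 (1.98-fold, 1.40 to 2.87). The next, 1 kb further on at chr7:102504301-102504650, read 40, 23 and 35 in set 1 and 68, 54 and 54 in set 2, again with no overlap but in the reverse order (1.79-fold higher in set 2, 1.34 to 2.88).

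The turn sat at the far edge of a stretch with no listed region, from 102108751 to 102503200 (394 kb). It holds 9 named genes, among them Chrna10, a nicotinic acetylcholine receptor subunit, Nup98, a nuclear pore protein, Rhog, a small GTPase, Stim1, the calcium sensor of the endoplasmic reticulum, Rrm1, a subunit of ribonucleotide reductase, and Olfr543 to Olfr545. The genes that carried a region just before it were Anapc15, Art5 and Art1. Any region that overlapped a gene's span or the 2 kb on either side was assigned to that gene. Anapc15, a subunit of the anaphase-promoting complex, carried 4 regions, all higher in set 1, and its libraries summed to 445, 509 and 407 against 279, 237 and 309. Art5 and Art1 encode ADP-ribosyltransferases. The single region of Art5 read 61, 52 and 52 against 42, 37 and 37, while the sums at Art1 overlapped between the sets (235, 211 and 229 against 228, 187 and 220).

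Directions of neighbouring regions were mixed on the approach to the turn. Among regions less than 1 kb apart, 7.14% of 658 neighbouring pairs pointed in opposite directions from 80 to 97 Mb, 36.8% of 329 pairs from 97 to 102 Mb, and 24.1% of 2923 pairs from 102 to 140 Mb, beside 19.3% in the whole table. Pde2a, a cyclic nucleotide phosphodiesterase gene at chr7:101421691-101512829, shows the mixture. Of the 49 regions it carried, 31 favoured set 1 and 18 favoured set 2, and its libraries summed to 8103, 8212 and 7640 in set 1 and 7306, 7400 and 7151 in set 2. The difference was log2 0.13 as deposited, and its direction reversed after scaling to equal sums. Slco2b1, an organic anion transporter, had 16 and 19 regions in the 2 directions and its sums overlapped (log2 −0.08).

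**Figure D3:**
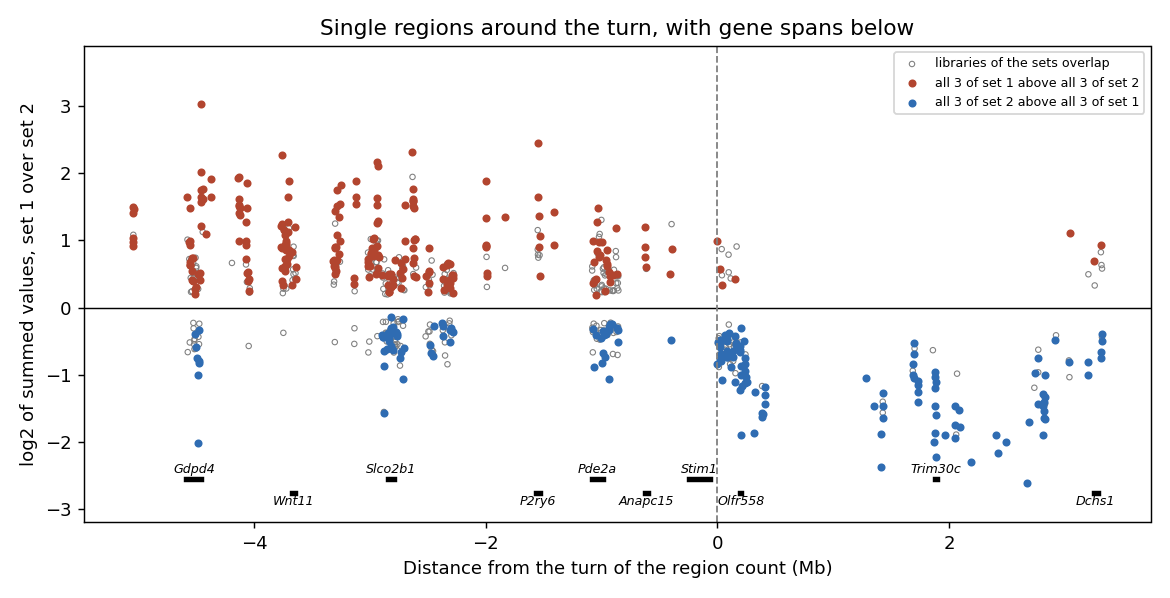
Log2 of summed set 1 over summed set 2 values for single regions against their distance from the turn of the region count in Mb, with spans of named genes below. Filled points are regions in which all 3 libraries of one set exceed all 3 of the other (red, set 1; blue, set 2), and open points are regions whose libraries overlap. Left of the dashed line both colours occur, with red the more frequent, a gap follows over Stim1, and from Olfr558 to Trim30c nearly all points lie below 0.

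In each window the region with the largest difference in value follows the same course. At 98 Mb it lay in Gdpd4, a glycerophosphodiester phosphodiesterase gene (chr7:98038601-98043500), and read 1210, 1166 and 1149 against 845, 851 and 778 (1.42-fold, 1.35 to 1.55). At 99 Mb it lay 2538 bp from Dgat2, the enzyme of the last step of triglyceride synthesis (chr7:99185251-99189900), and read 1004, 1117 and 987 against 649, 676 and 596 (1.62-fold, 1.46 to 1.87). At 100 Mb it lay 12873 bp from Pgm2l1, glucose-1,6-bisphosphate synthase, with 626, 659 and 579 against 418, 434 and 484. All 3 of these regions were separated with set 1 higher. The one in the last window before 102 Mb, inside Pde2a (chr7:101442101-101444550), was only just separated, with 661, 616 and 522 against 425, 403 and 521. From 102 Mb the order reversed: the region 173 bp from Olfr558 (chr7:102700751-102702150) read 189, 205 and 172 against 286, 308 and 299 (1.58-fold higher in set 2, 1.39 to 1.79). The region in Trim30c at chr7:104380951-104383800 read 178, 242 and 253 against 473, 556 and 523 (2.30-fold, 1.87 to 3.11). Trim30c belongs to the tripartite motif family of ubiquitin ligase-like proteins.

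The first stretch after the turn is a cluster of odorant receptor genes. From the first to the last Olfr gene that carried a region, 102532749 to 105339714, 124 of 132 regions (93.9%) were higher in set 2. The share was 70.6% from 102 to 140 Mb and 40.5% in the whole table. Regions of other genes in this block are included. The libraries summed to 6351, 6773 and 6066 in set 1 and 10237, 10587 and 9827 in set 2 (1.60-fold, 1.45 to 1.75). Of the 122 Olfr genes there, 22 carried a region. Of these 22, 21 had the higher sum in set 2, 18 of them separated, beside 96 and 77 of 132 for all genes after 102 Mb. Olfr558 had 8 of 8 regions higher in set 2, with sums of 856, 972 and 867 against 1333, 1340 and 1265. Olfr78, an odorant receptor that also responds to short-chain fatty acids outside the nose, had 8 of 8 as well, with 398, 358 and 328 against 676, 788 and 566 (1.87-fold, 1.42 to 2.40). The exception, Olfr556, carried 1 region whose libraries overlapped (70, 54 and 31 against 49, 10 and 23). Before 102 Mb 2 of 19 Olfr genes carried a region, and 1 of them, Olfr520, had the higher sum in set 2.

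Most odorant receptor genes after the turn carried no listed region, since only those 22 of 193 did, beside 132 of 563 for all named genes after 102 Mb. A stretch from 102917051 to 103784200 (867 kb) held 47 Olfr genes and no region, and another from 105824801 to 108914200 (3089 kb) held 67. Within the cluster lie the beta globin genes, of which 1 of 5 matched carried a region: Hbb-y, an embryonic globin, with 3, 3 and 2 against 8, 10 and 6. All 6 values are low. Trim6 (46, 42 and 40 against 82, 90 and 131) and Trim30c (338, 348 and 408 against 950, 1029 and 906) further on were both separated with set 2 higher. Past the last Olfr gene that carried a region, Dchs1, a large protocadherin of the planar polarity pathway, went the other way. Both its regions were higher in set 1, with sums of 1011, 950 and 949 against 604, 642 and 646 (1.54-fold, 1.47 to 1.67).

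Before the turn, among windows with at least 10 regions, those furthest in favour of set 1 were at 89 Mb and at the proximal end. The windows at 80, 81 and 82 Mb had log2 ratios of 0.76, 0.75 and 0.62, and the window at 89 Mb 0.94. The 306 regions of the window at 81 Mb included 304 higher in set 1, and the longest run of neighbouring regions with one direction on this side, 245 regions from chr7:81165251-82224400, lay mostly within it. That run covers Pde8a, a cAMP phosphodiesterase, with 72 of 72 regions higher in set 1 and sums of 11805, 12588 and 12109 against 5763, 5877 and 5831 (2.09-fold, 2.01 to 2.18). It also covers Homer2, a postsynaptic scaffold protein, with 58 of 58 and sums of 14103, 13768 and 13233 against 9510, 9482 and 9575 (1.44-fold, 1.38 to 1.49). Adamtsl3, a secreted matrix glycoprotein just beyond, had 86 of 86 (8837, 9026 and 8697 against 5155, 4884 and 5175). No library of set 2 reached any library of set 1 at these 3 genes.

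The exceptions before the turn were 3 windows, at 87, 91 and 92 Mb, all separated with set 2 higher. The window at 87 Mb holds only the 3 regions of Nox4, an NADPH oxidase of fibroblasts and other cells, with sums of 33, 26 and 27 against 103, 88 and 82. The windows at 91 and 92 Mb hold much of Dlg2, which encodes the synaptic scaffold PSD-93 and spans chr7:90476188-92449246. Dlg2 had 88 of 94 regions higher in set 2 and sums of 4230, 4219 and 4170 against 5834, 6041 and 5882 (1.41-fold, 1.38 to 1.45). Its 81 consecutive regions from chr7:90513901-92095700 formed the only run of at least 10 regions higher in set 2 before 102 Mb, beside 17 such runs higher in set 1. Next to it, Sytl2, a Rab27 effector in vesicle traffic, had 9 of 9 regions higher in set 1 (755, 920 and 885 against 179, 175 and 203), so the direction changed between neighbouring genes there too.

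After the turn the windows were mostly, not all, higher in set 2. Of the 34 windows from 102 to 140 Mb with at least 10 regions, 27 had the higher sum in set 2, 25 of them separated, beside 39% and 33.6% of such windows in the whole table. Before 102 Mb 13 of 15 were higher in set 1, all 13 separated, beside 54.7%. The 12 windows from 114 to 126 Mb were all separated with set 2 higher, with log2 ratios from −0.18 to −1.62. The lowest of these, at 124 Mb, holds 23 regions and much of the gene Hs3st4, with sums of 264, 292 and 208 against 761, 820 and 765. Over the 49 windows with at least 10 regions, the highest library of a set exceeded its lowest by a median of 1.07-fold. The sets differed by a median of 1.31-fold in values as deposited. Only regions with a p of up to 0.1 by the authors' test enter these windows, and the stretch was itself picked on its values. A gap between the sets wider than the spread within them could therefore arise from this choice alone. Such a gap cannot be taken as evidence for the directions, which were themselves part of the choice.

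The windows higher in set 1 on this side were those at 110, 111, 112, 113, 127, 128, 130 and 134 Mb. At 110 Mb all 14 regions were higher in set 1 (765, 711 and 738 against 386, 369 and 303), and at 130 Mb all 41 were (4180, 4073 and 4281 against 2354, 2465 and 2472). The latter belong to a run of 96 regions from chr7:129587351-131030400 that covers Fgfr2, a fibroblast growth factor receptor, and Tacc2, a centrosomal coiled-coil protein. Tacc2 had 18 of 18 regions higher in set 1 (1.69-fold, 1.60 to 1.80). At 113 Mb lies Spon1, which encodes the matrix protein F-spondin, with 84 of 130 regions higher in set 1 and sums of 24832, 24722 and 23336 against 21890, 22546 and 21500. The difference there was log2 0.14, and scaling to equal sums reversed it. The window at 128 Mb overlapped between the sets and also changed sign on that scaling. The window at 126 Mb and the last of the stretch, at −0.00 and −0.10, overlapped as well.

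Runs of at least 10 neighbouring regions with one direction repeat the division already given by the shares of regions. Such runs were not counted over the whole table. After 102 Mb 65 runs with 2305 regions were higher in set 2 and 18 with 505 regions were higher in set 1. Before it 17 runs held 914 regions higher in set 1, and 1 run held 81 regions higher in set 2. The longest run, 246 regions higher in set 2 at chr7:135840201-136623200, contains no named gene (1.87-fold, 1.76 to 2.04). The longest with named genes, 207 regions at chr7:131804851-132526650, covers Gpr26, Cpxm2 and Chst15 (1.93-fold, 1.85 to 2.09). Neighbouring regions share their surroundings, so a run is not a set of independent observations. Gpr26, a brain G protein-coupled receptor, had 10 of 10 regions higher in set 2, with sums of 851, 889 and 854 against 1683, 1703 and 1746.

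The 6 values of a region summed to between 31 and 12958, with a median of 397, and regions were 50 to 10450 bp long. At least 1 library read 0 in 239 of them. Most regions differed by less than 2-fold. Before 100 Mb 777 regions (57.9%, beside 40.5% in the whole table) were separated with set 1 higher and 148 with set 2 higher. After it 2258 (43.4%, beside 24.7%) were separated with set 2 higher and 872 with set 1 higher. At least 2-fold differences in favour of set 1 made up 37.6% of regions before 100 Mb, beside 22.3%, and in favour of set 2 19.3% after it, beside 12.9%. Divided at 102 Mb, the median fold was 1.86 among regions higher in set 1 before it and 1.65 among regions higher in set 2 after it. Among listed regions, short ones differed more: under 300 bp the median log2 ratio was 1.34 before 102 Mb and −1.06 after it, and from 2000 bp upward 0.44 and −0.31. Both length classes had opposite signs on the 2 sides. In the whole table the corresponding medians were 0.98 and 0.34. Only regions that passed the authors' p are listed, and short regions with small differences may be missing. The larger folds can therefore not be read as a trait of short regions.

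The regions with the largest folds, among separated regions with a total of at least 200, had low values in one set. Before 100 Mb the largest in favour of set 1 lay in Sytl2 (chr7:90382151-90382450), with 47, 81 and 74 in set 1 and 0, 0 and 2 in set 2. The set 2 total is below 3, so its ratio is not given as a fold. Next came Cpeb1, a cytoplasmic polyadenylation factor (chr7:81444601-81444900), with 79, 63 and 54 against 6, 4 and 6. Regions at Ap3b2, Tmem135 and Tmc3 completed the 5 of that kind with 11.1-fold, 8.67-fold and 8.65-fold. On the same side, 4 of the 5 largest in favour of set 2 lay in Dlg2, led by chr7:92013551-92013850 with 5, 10 and 7 against 60, 67 and 52 (7.83-fold, 4.82 to 11.3). The other lay 22685 bp from Zfand6.

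After 100 Mb the largest in favour of set 2 lay in Hs3st4 (chr7:124119751-124120250), with 25, 20 and 15 against 112, 113 and 108 (5.48-fold, 4.19 to 7.12). It was followed by regions in Trim30c (4.68-fold), in Cpxm2 (4.57-fold), 55012 bp from Gpr26 (4.53-fold) and 156720 bp from Glrx3 (4.50-fold). In favour of set 1, 4 of 5 lay in Jakmip3 (up to 16.5-fold), a microtubule-linked neuronal protein at the far end of the stretch, and 1 in P2ry6, a nucleotide receptor, before 102 Mb. The P2ry6 region (chr7:100956251-100956750) read 84, 110 and 80 against 25, 5 and 19. Jakmip3 as a whole had 88 of 94 regions higher in set 1 and sums of 11569, 11878 and 11504 against 6040, 5976 and 6402 (1.90-fold, 1.80 to 1.99), the reverse of the side it lies on.

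Genes were then read by role. Of 195 named genes starting before 102 Mb 47 carried a region, and 42 of these 47 had the higher sum in set 1, with a median log2 ratio of 0.73. Of 563 starting after it 132 carried a region, and 96 had the higher sum in set 2, with a median of −0.40. Set 1 regions were found at 23.1% of the genes before 102 Mb and 12.6% after it, beside 27.5% of all named genes in the annotation, and set 2 regions at 8.21% and 20.1%, beside 18.5%. The share with either kind is 32.2% in the annotation. The 563 genes include 193 odorant receptor genes, of which only 22 carried a region, and this lowers the shares after 102 Mb. After scaling to equal sums 39 of the 47 and 27 of the 132 had the higher sum in set 1. The median log2 ratio over all genes of the stretch that carried a region was −0.12.

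**Figure D4:**
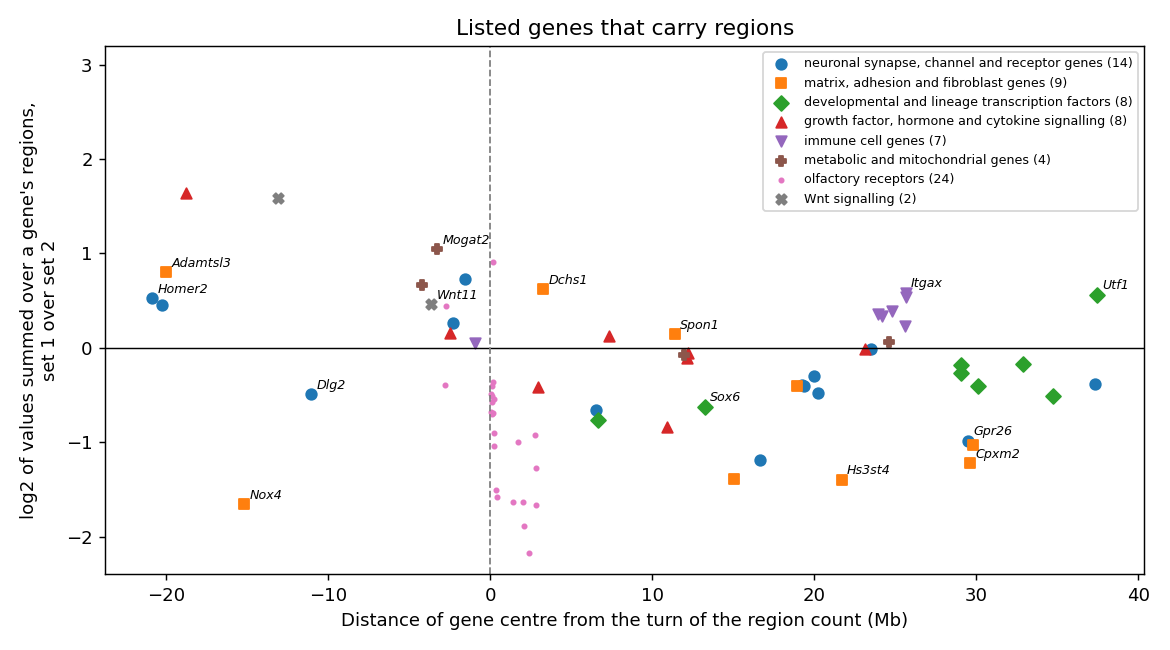
Log2 of summed set 1 over summed set 2 values per listed gene that carries a region, against the distance of the gene's centre from the turn of the region count in Mb. Colours and shapes give 8 gene lists, with the number of genes plotted in parentheses. Left of the dashed line most genes lie above 0, apart from Dlg2, Nox4 and Olfr520. Right of it most lie below, apart from the immune cell genes around Itgax, Dchs1, Utf1, Olfr556 and a few others near 0.

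Of the listed neuronal genes, those of synapses, channels and receptors, most that carried a region had the direction of their side. The list is not complete: Jakmip3, described above as encoding a neuronal protein, is not on it and favoured set 1 after 102 Mb. Before 102 Mb 4 of the 5 that carried a region had the higher sum in set 1 (Dlg2 was the other), and after it all 9 of 9 had the higher sum in set 2, 8 of them separated, beside 96 of 132 for all genes there. Prkcb, a protein kinase C isoform, had sums of 3688, 3712 and 3400 against 3974, 4818 and 4509 (1.23-fold, 1.07 to 1.42). Ric3, a chaperone of nicotinic receptors, had 27 of 29 regions higher in set 2 (1.58-fold, 1.48 to 1.66), and Cacng3, an AMPA receptor auxiliary subunit, 8 of 10 (1.39-fold, 1.20 to 1.61). Gsg1l, another AMPA receptor auxiliary subunit and the gene of this list with most of the signal, was the one that overlapped: 63 of its 99 regions were higher in set 1, yet its sums of 16850, 16739 and 15819 against 16444, 16896 and 16634 came to log2 −0.02.

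Among developmental and lineage transcription factors, classic Polycomb targets, none of 3 carried a region before 102 Mb. After it 8 of 14 did, beside 132 of 563 for all named genes there, a share lowered by the 193 odorant receptor genes. Of these 8, 7 had the higher sum in set 2, 5 of them separated, beside 96 of 132 (72.7%). Sox6, a factor in cartilage, muscle and red cell development at chr7:115470872-116040776, had 127 of 135 regions higher in set 2 and sums of 7128, 7259 and 6579 against 10589, 10851 and 10851 (1.54-fold, 1.46 to 1.65). Lmo1, a LIM-only cofactor, had 17 of 17 (991, 1083 and 946 against 1644, 1620 and 1878). The homeobox genes Hmx2 (1685, 1539 and 1652 against 1738, 1954 and 1826) and Nkx1-2 (673, 730 and 574 against 858, 871 and 886) differed less but without overlap. Utf1, a chromatin factor of pluripotent cells at the distal end, was the exception, with all 3 regions higher in set 1 (189, 216 and 247 against 153, 133 and 155).

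Matrix, adhesion and fibroblast genes held some of the widest differences. After 102 Mb 5 of the 7 that carried a region had the higher sum in set 2, a share close to the 96 of 132 for all genes there. All 5 were separated, beside 77 of the 132. The median log2 ratio of the 7 was −1.03, beside −0.40 for all genes there. Hs3st4 and Hs3st2 encode sulfotransferases of heparan sulfate. Hs3st4 had 26 of 26 regions higher in set 2 and sums of 413, 398 and 367 against 1032, 1111 and 965 (2.64-fold, 2.33 to 3.02), and Hs3st2 had 36 of 43 and sums of 5328, 5106 and 4939 against 6453, 7264 and 6577 (1.32-fold, 1.21 to 1.47). Cpxm2, a secreted carboxypeptidase-like protein, had 33 of 33 (860, 870 and 882 against 1935, 2010 and 2149), and Chst15, a chondroitin sulfate sulfotransferase, 24 of 24 (666, 593 and 533 against 1191, 1357 and 1106). Xylt1, which starts glycosaminoglycan chains, carried 6 regions, all higher in set 2 (2.61-fold, 1.99 to 3.30). Genes that build or sulfate glycosaminoglycans thus make up 4 of the 5, a grouping seen only after the values were known.

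Immune cell genes went against their side. After 102 Mb 6 of 8 carried a region, beside 132 of 563 for all named genes there. All 6 had the higher sum in set 1, as deposited and after scaling to equal sums, beside 36 of 132 as deposited. As deposited 5 of the 6 were separated, beside 27 of the 132. Itgal, Itgad and Itgax encode alpha subunits of leukocyte integrins. Itgal had 17 of 19 regions higher in set 1 with sums of 4084, 3976 and 3981 against 3054, 3365 and 2765 (1.31-fold, 1.18 to 1.48), and Itgad 19 of 20 with 3394, 3614 and 3110 against 2468, 2247 and 2257. Itgax had 8 of 8 with 3085, 2994 and 2618 against 1885, 1966 and 1947. The actin regulator Coro1a, with 833, 864 and 807 against 669, 671 and 647, was separated too (1.26-fold, 1.20 to 1.33), and Itgam overlapped. These genes lie within 2 Mb of one another, in the windows at 126, 127 and 128 Mb, so they are neighbours rather than independent examples. Those windows, at log2 −0.00, 0.23 and 0.11, did not favour set 2 as most of their side did. The direction can therefore not be assigned to immune genes as a kind.

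The remaining lists had few members with a region. Of the Wnt genes, Wnt11 had 7 of 7 regions higher in set 1 (1505, 1392 and 1342 against 1057, 1029 and 990) and Fzd4, a Frizzled receptor, 1 of 1 (63, 82 and 104 against 11, 23 and 48), both before the turn. Of growth factor, hormone and cytokine genes 8 carried a region, 3 with the higher sum in set 1 and 5 in set 2. Scube2, a secreted protein that helps release Hedgehog ligands (log2 0.13), and Chrdl2, a BMP antagonist (log2 0.16), were separated with set 1 higher as deposited and reversed after scaling. Il21r and Calcb overlapped. Among metabolic genes Mogat2, a monoacylglycerol acyltransferase, had 6 of 6 regions higher in set 1 (624, 573 and 545 against 234, 337 and 272), while Pde3b, Qprt and Acer3 overlapped. Of 9 Polycomb and cell cycle genes only Bub3, a spindle checkpoint protein, carried a region, and Eed, the Polycomb subunit encoded on this stretch, carried none. None of 15 vomeronasal Vmn2r genes carried a region.

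Promoters under regions were poor in CG pairs on both sides. In RefSeq's windows from 250 bases before to 50 after a start, 28 of 311 before 102 Mb lay under regions higher in set 1 only (the share in all promoters was 7.80%) and 5 under regions higher in set 2 only. After 102 Mb 18 of 757 lay under set 1 regions and 39 under set 2 regions only (5.15%, beside 3.37%). The median number of CG pairs was 2.5 under set 1 regions before 102 Mb and 2 under set 2 regions after it, compared with 9 and 5 in promoters under no region. In all promoters the medians were 4 under regions of either direction and 8 under none. The Wnt11 promoter held 45 CG pairs in the same 300-base window, 37 of them in the printed bases. It was therefore unlike most promoters under a region, and the printed odorant receptor promoters were like them.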

How the data were processed

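H3K27me3 ChIP-seq of 6 immunoprecipitated libraries was taken from 1 table that the authors deposited for the whole series, with no header. The tools named are BWA 0.7.17, Trimmomatic 0.36 and CASAVA, on build GRCm38, per the submitters' processing notes; the sources used here do not give the region caller, its normalization, its p or any input correction. Each cell deposited by the authors joins 6 whole numbers with a further one, taken to be a −log10 p. Rescaling is not stated, so the numbers were not treated as raw counts, no count model was fitted, and the p served only as an alternative filter.

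Regions were summed per library over 1 Mb windows, spans and genes with Python 3.11.15 and pandas 2.3.3, with a pseudocount of 1. Libraries carry no names, so no mean ± SD is given. Gene spans and promoters are RefSeq's, on GRCm38.p6, and the flank was 2 kb. Shared regions count for each gene they touch. The sums were tested on simulated data. Named genes were up to 4 per list with the largest totals, the region with the largest difference per window in the 10 windows from 95 Mb, the 5 largest folds per direction and side of 100 Mb, and the regions at the turn. Other genes were named after their values were seen. The members, lists and rules were chosen with earlier results of these data known. Listed symbols without a match were left out (Il4r, Hbb-bh0, Art2a). Values of 1 listed gene are not reported here. Alternatives covered the authors' p, pseudocount, scaling, minimum total, length, window size, flank, boundary and leaving out each library. The design text calls the libraries biological replicates.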

Additional observations from a re-analysis of the deposited data

How the results depend on the processing

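No paired analysis was possible because the values carry no library names or replicate numbers. Of 141 recomputed values of the main comparisons, 118 stayed within the libraries' spread or within 1.5 times the count; leaving out each library in turn moved none beyond that and left the log2 ratio at 0.50 to 0.52 before 100 Mb and −0.23 to −0.19 after it. The log2 ratio over 80 to 100 Mb (0.51) was 0.55 at the authors' p under 0.05, 0.31 after scaling to equal sums and 0.78 as the median of regions. Over 100 to 140 Mb (−0.21) it was −0.41 after scaling and −0.54 as the median. The step at 100 Mb (0.30) was 0.88 from medians, 0.37 with the boundary 1 Mb earlier, 0.38 with it 1 Mb later, 0.14 with 2 Mb and 0.44 with 10 Mb each side, and with 1 Mb each side it reversed to −0.0030, since the windows on both sides stand at 0.16. The step taken at the window turn, added after seeing the data, was 1.28 from medians. The share higher in set 1 before 100 Mb (80.3%) was 83.1% at p under 0.05, 78.4% at totals of at least 100 and 83.1% at 500 bp or more; the share higher in set 2 after it (69.3%) was 71.4% at p under 0.05 and 67.2% at 500 bp or more. Separated regions of at least 500 bp numbered 354 before and 1090 after, fewer because fewer regions enter. Windows of 0.5 Mb gave 22 higher in set 1 before and 49 higher in set 2 after, windows of 2 Mb 7 and 15. Scaling reversed Chrdl2 to −0.0391, Scube2 to −0.0670 and Spon1 to −0.0495. The turn of the region count, also added after seeing the data, stayed in place except with regions of at least 500 bp, where it fell 613 kb earlier at Anapc15. Depth is unknown, so what it limits cannot be stated.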
